A study of Homo sapiens with 8 samples.

Results

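Salivary fluid secretion is carried by a small set of channels, carriers and receptors, and 10 of their genes are described here in NS-SV-AC cells, a human cell line that was derived from acinar cells of the salivary gland and immortalised. They are the water channels AQP1, AQP3, AQP5 and AQP11, the ion transport genes ANO1, SLC12A2 and KCNN4, and the receptor and calcium release genes CHRM3, CHRM1 and ITPR3. The genes were taken by name: every probe set to which the platform's annotation gives 1 of these symbols was used, which gave 23 of the 49293 probe sets and 10 of the 18239 named genes. A further probe set was left out because the annotation lists it for both AQP1 and MINDY4. Of the 23 kept, 4 have identifiers ending in s_at and 7 in x_at. Whether probes of the 23 also match other genes was not examined. The cells had received TNF-α, an inflammatory cytokine, at 20 ng/ml, or bovine serum albumin (BSA) as the control protein, and were harvested after 2, 6, 12 or 24 h. There was 1 array for each treatment and time, so each treatment had 4 arrays and no time had a replicate. All arrays come from this single line.

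In an acinar cell, acetylcholine acts on muscarinic receptors, which signal through Gq and phospholipase C to open IP3 receptors on the endoplasmic reticulum and raise cytosolic calcium. Calcium opens a chloride channel in the apical membrane and a potassium channel elsewhere, while a sodium, potassium and chloride cotransporter in the basolateral membrane keeps the cell loaded with chloride. Chloride and then sodium move into the lumen, and water follows through aquaporins, with AQP5 the main apical water channel of the acinus.

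Values are log2 expression levels per probe set. Differences are TNF-α minus BSA at the same time, so that 1 is a 2-fold difference. On each array a level was read against the lower quartile of all probe sets of that array, which lay between 3.37 and 3.51 and marks the dimmest probe sets, and against the median, 4.33 to 4.36. The TNF-α array at 24 h stood apart from the rest. The 3′ end of its GAPDH control transcript read 6.28 above the 5′ end, a gap that was 0.20 to 0.37 on each of the others, and its mean correlation with the others over all probe sets was 0.905, where the 7 others correlated with each other at 0.963 to 0.995. Results are therefore given over 2, 6 and 12 h and over all 4 times. As a check of the treatment, the brightest probe set of NFKBIA, which encodes an inhibitor of NF-κB induced by TNF-α, rose by 3.23 ± 0.09 (SE, 3 pairs of arrays) from 2 to 12 h, with a limma adjusted p of 0.0008. Over the 4 times it passed at 3.27 (limma adjusted p = 0.0080). The brightest probe set of TNFAIP3, which encodes the NF-κB inhibitor A20, read 3.26 to 3.75 in BSA, under the lower quartile at 2, 6 and 12 h, and 9.56 to 11.21 in TNF-α. It passed from 2 to 12 h (limma adjusted p = 0.0038) and not over the 4 times (0.0755), and no fold is given because the BSA side is among the dimmest signals.

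Most of the fluid secretion genes were dim in these cells, and none of their 23 probe sets passed the test for a difference between TNF-α and BSA. Among the values far from 0 were these. AQP11 read lower with TNF-α on both of its probe sets at 2, 6 and 12 h. At 24 h both read higher with TNF-α. AQP3 read higher on its brightest probe set by 0.54 at 2 h and 0.74 at 6 h. That probe set was also higher at 12 and 24 h, by less. The brightest probe sets of AQP5, ITPR3 and KCNN4 were likewise higher at all 4 times. The probe sets of SLC12A2 parted from each other on the TNF-α array at 24 h. In bulk RNA, fewer cells that express a gene and less of its RNA per cell cannot be told apart. AQP5, CHRM3, CHRM1, ANO1, AQP1 and ITPR3 stayed below the median of all probe sets on every array in both arms.

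**Figure D1:**
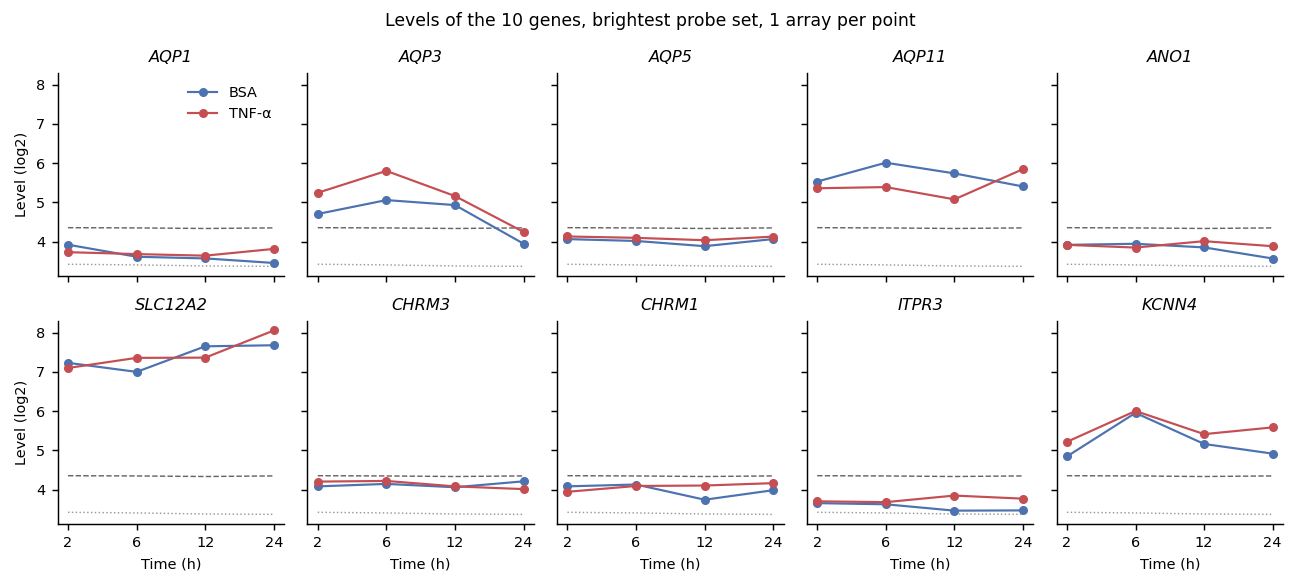
Levels (log2) of the brightest probe set of each of the 10 genes against time in hours (times evenly spaced), with 1 array per point, BSA in blue and TNF-α in red. The dotted and dashed lines are the lower quartile and the median of all probe sets on the BSA arrays. SLC12A2, AQP11 and KCNN4 lie above the median on all 8 arrays, and 6 of the 10 genes lie between the 2 lines.

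With limma, 0 of the 23 probe sets passed an adjusted p of 0.05 over the 4 times, where 2 of all probe sets (0.00406%) did, and 0 of 23 passed over 2, 6 and 12 h, where 98 (0.199%) did. At an unadjusted p under 0.05 there were 3 of 23 (13.0%) against 6.39% of all probe sets over the 4 times, and 5 of 23 (21.7%) against 12.4% from 2 to 12 h. The lowest adjusted p of the 23 was 0.690 over the 4 times and 0.216 from 2 to 12 h. A test of whether the difference changed with the log2 of the hours called 0 of 23, and 0.0% of all probe sets, with 1 of 23 and 4.25% of all at an unadjusted p under 0.05. These p-values measure the spread between single arrays at different times, which may hold technical noise and any change of the response with time.

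The sizes of the differences were like those of the whole array. The median size of the fitted difference was 0.08 for the 23 probe sets from 2 to 12 h and 0.08 for all, and over the 4 times 0.09 and 0.11. At least 2-fold apart were 0 of 23 at 2 h (0.42% of all probe sets), 1 at 6 h (1.42%), 1 at 12 h (1.69%) and 2 at 24 h (14.6%). The 6 h and 12 h cases are the same AQP11 probe set, and those at 24 h are that AQP11 probe set and 1 of SLC12A2. Over the 4 times the fitted difference was above 0 for 20 of the 23 (57.8% of all probe sets), and from 2 to 12 h for 16 (48.6%). At 24 h the median difference of all probe sets was itself 0.13, and that of the 23 was 0.26. The BSA and TNF-α arrays did not overlap for 1 of 23 probe sets over the 4 times, where 4.22% of all did not, and for 4 of 23 over 2, 6 and 12 h, where 11.6% of all did not. These 4 were both AQP11 probe sets and the brightest of AQP3 and of ITPR3.

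**Figure D2:**
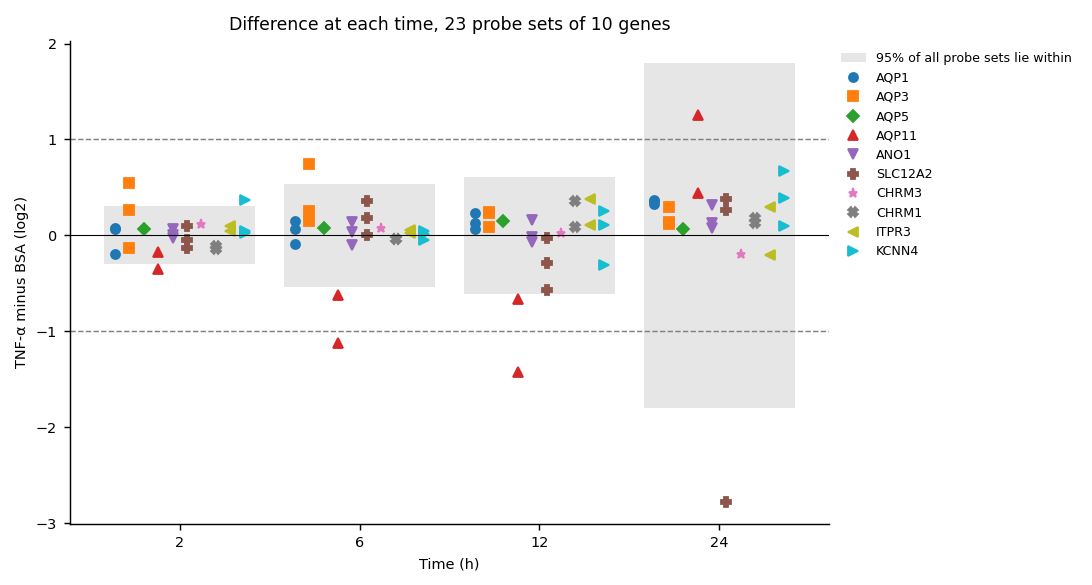
TNF-α minus BSA (log2) at each time in hours for the 23 probe sets, with 1 marker per probe set and 1 symbol per gene. The grey box holds 95% of all probe sets at that time and the dashed lines mark 2-fold. The brightest AQP3 probe set lies above the box at 2 and 6 h, and the brightest of KCNN4 at 2 h. For AQP11, 11728147_s_at lies below the box at 2, 6 and 12 h and 11728146_a_at at 6 and 12 h. At 24 h 1 SLC12A2 probe set is at −2.77.

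Among the water channels, AQP5 is the one that carries most water across the apical membrane of acinar cells. Its single probe set (11721531_a_at) read 4.06, 4.02, 3.88 and 4.06 in BSA at 2, 6, 12 and 24 h and 4.13, 4.09, 4.03 and 4.13 in TNF-α. It was 0.50 to 0.71 above the lower quartile and below the median on all 8 arrays. The TNF-α array was higher at all 4 times, but by 0.07, 0.08, 0.15 and 0.06 only, and the arrays of the 2 arms overlapped. The fitted difference was 0.10 from 2 to 12 h, with a 95% interval of −0.07 to 0.27 and a limma adjusted p of 0.613, and 0.09 (−0.08 to 0.26) over the 4 times. Differences of so dim a probe set can be understated by the array.

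AQP3, an aquaglyceroporin that also passes glycerol, gave the largest fitted difference on the higher side among the 23 from 2 to 12 h. Its brightest probe set (11756585_a_at) read 4.70, 5.06, 4.93 and 3.95 in BSA and 5.24, 5.80, 5.16 and 4.25 in TNF-α at 2, 6, 12 and 24 h. TNF-α was thus higher at each time, by 0.54, 0.74, 0.23 and 0.30, and in both arms the level peaked at 6 h and was lowest at 24 h, where it was below the median. From 2 to 12 h the fitted difference was 0.51 ± 0.11 (SE, 3 pairs), with an unadjusted 95% interval of 0.23 to 0.78 and a limma adjusted p of 0.232, and over the 4 times 0.45 ± 0.11 (adjusted p = 0.690). The other 2 probe sets were smaller on the same side: 11747494_a_at, which read 3.18 to 3.79 around the lower quartile, was 0.22 ± 0.07 higher from 2 to 12 h, and 11760931_x_at was 0.07 ± 0.09 higher, with a difference of −0.13 at 2 h. As the mean of its 3 probe sets AQP3 was 0.26 higher from 2 to 12 h (adjusted p = 0.220 over all genes).

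AQP11, an aquaporin found in intracellular membranes of the endoplasmic reticulum, went the other way. Its brighter probe set (11728146_a_at) read 5.53, 6.01, 5.74 and 5.40 in BSA and 5.36, 5.39, 5.08 and 5.85 in TNF-α. The dimmer one (11728147_s_at) read 5.23, 5.75, 5.42 and 5.02 in BSA and 4.88, 4.62, 3.998 and 6.28 in TNF-α. On both, every TNF-α array from 2 to 12 h was below every BSA array of those times, and the TNF-α array at 24 h was above the BSA array at 24 h. The differences at 2, 6, 12 and 24 h were −0.17, −0.62, −0.66 and 0.44 for the first and −0.35, −1.12, −1.42 and 1.26 for the second.

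From 2 to 12 h the fitted differences of AQP11 were −0.48 ± 0.11 (SE, 3 pairs, limma adjusted p = 0.252) and −0.96 ± 0.20 (adjusted p = 0.216), and −0.72 as the mean of both (adjusted p = 0.189 over all genes). Without the 2 h pair, which leaves 2 pairs of arrays and 1 residual degree of freedom, both AQP11 probe sets passed with −0.64 (adjusted p = 0.0264) and −1.27 (adjusted p = 0.0035), in a fit that called 3.15% of all probe sets. Over the 4 times the differences were −0.25 ± 0.21 and −0.41 ± 0.47 and did not pass. The sign at 24 h comes from the array with the GAPDH gap of 6.28, and the part of RNA quality in it was not tested.

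AQP1, a water channel of blood vessels and many epithelia that in salivary gland lies mostly in capillaries and myoepithelial cells, was near the lower quartile. Its brightest probe set read 3.92, 3.61, 3.57 and 3.45 in BSA and 3.73, 3.68, 3.64 and 3.81 in TNF-α, and the other 2 lay between 3.04 and 3.62. The brightest differed by −0.02 from 2 to 12 h (95% interval −0.23 to 0.19). All 3 read higher at 24 h, by 0.32 to 0.37, on the array named above.

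**Figure D3:**
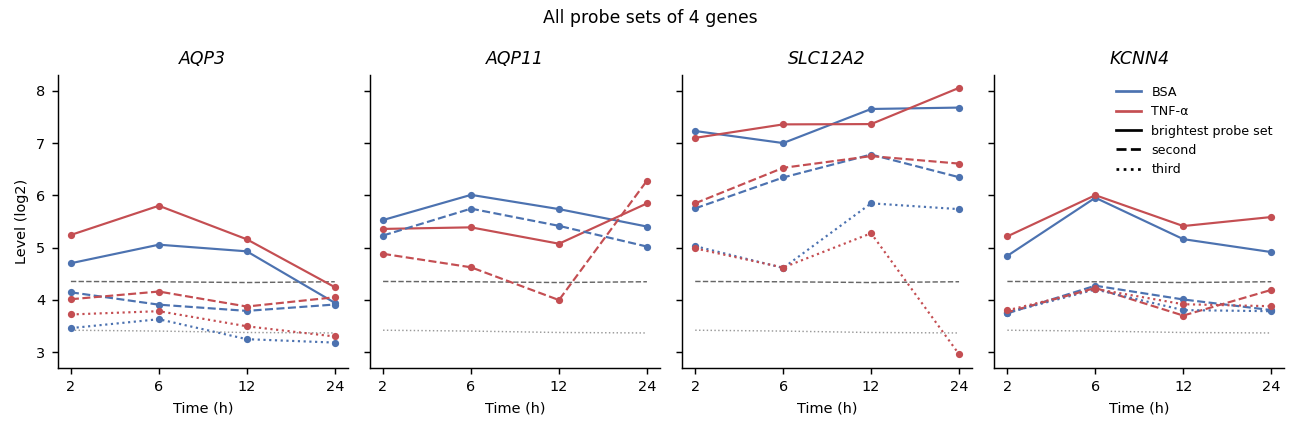
Levels (log2) of every probe set of AQP3, AQP11, SLC12A2 and KCNN4 against time in hours (evenly spaced), with BSA in blue, TNF-α in red, and solid, dashed and dotted lines for the probe sets of each gene from the brightest to the dimmest. The thin grey lines are the lower quartile and median of the BSA arrays. AQP11 runs lower with TNF-α until 12 h and higher at 24 h, and the dimmest SLC12A2 probe set is at 2.96 on the TNF-α array at 24 h.

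SLC12A2, which encodes the chloride-loading cotransporter NKCC1, was far above the lower quartile. Its brightest probe set (11724133_s_at) read 7.23, 7.001, 7.65 and 7.68 in BSA and 7.10, 7.36, 7.36 and 8.06 in TNF-α, and was 3.60 to 4.54 above the lower quartile. The arms overlapped and the TNF-α array was higher at 6 and 24 h and lower at 2 and 12 h. The fitted difference from 2 to 12 h was −0.02 (95% interval −0.35 to 0.31) and over the 4 times 0.08 (−0.30 to 0.46). Its sign turned to 0.01 from 2 to 12 h when the arrays were quantile normalised again.

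The 3 SLC12A2 probe sets gave −0.29, −0.03 and −0.57 at 12 h, from the brightest to the dimmest, and lay farther apart at 24 h. At 24 h the brightest was 0.38 higher in TNF-α and 11724134_a_at 0.26 higher, while 11745260_x_at was −2.77, from 5.74 in BSA to 2.96 in TNF-α. On the 7 other arrays this probe set had read 4.61 to 5.85. Probe sets of 1 gene can lie at different distances from the 3′ end, which was not examined here, and the array is that with the wide GAPDH gap; their part in this gap was not tested.

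KCNN4, the intermediate-conductance calcium-activated potassium channel, read highest at 6 h in both arms. Its brightest probe set (11719227_x_at) read 4.84, 5.96, 5.16 and 4.92 in BSA and 5.22, 6.00, 5.41 and 5.59 in TNF-α. From 2 to 6 h it went up by 1.11 in BSA and by 0.79, which is under 2-fold, in TNF-α. Of all probe sets, 1.13% in BSA and 1.75% in TNF-α moved at least 2-fold in either direction. The 95th percentile of the size of this step over all probe sets was 0.66 in BSA and 0.67 in TNF-α. There is 1 array per point, so the KCNN4 step has no test. The TNF-α arrays were higher by 0.37, 0.05, 0.25 and 0.67, with a fitted difference of 0.22 ± 0.09 from 2 to 12 h (limma adjusted p = 0.389) and 0.34 ± 0.12 over the 4 times (0.690). The other 2 KCNN4 probe sets read 3.70 to 4.27 and gave −0.11 and 0.06 from 2 to 12 h, and both were also highest at 6 h in each arm.

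ANO1, the calcium-activated chloride channel TMEM16A of the apical membrane, was dim. Its brightest probe set read 3.92, 3.94, 3.85 and 3.57 in BSA and 3.92, 3.85, 4.01 and 3.88 in TNF-α. The other 2 lay between 2.49 and 2.78, below the lower quartile on all 8 arrays. The differences from 2 to 12 h were 0.02, 0.03 and 0.01 with 95% intervals that together ran from −0.18 to 0.22, and with centred arrays the last turned to −0.0012.

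Of the receptors, CHRM3, the main muscarinic receptor of salivary secretion, has 1 probe set. It read 4.08, 4.14, 4.06 and 4.21 in BSA and 4.20, 4.22, 4.08 and 4.01 in TNF-α, and was 0.50 to 0.84 above the lower quartile. Its fitted difference was 0.07 from 2 to 12 h (95% interval −0.10 to 0.24) and 0.01 (−0.21 to 0.22) over the 4 times, where it was −0.01 with centred and −0.03 with requantiled arrays. CHRM1, a second muscarinic receptor of the gland, read 4.08, 4.13, 3.74 and 3.98 in BSA and 3.94, 4.09, 4.10 and 4.16 in TNF-α on its brighter probe set. It differed by 0.06 from 2 to 12 h (−0.22 to 0.34), and its other probe set was under the lower quartile on all 8 arrays.

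ITPR3, an IP3 receptor that releases calcium near the apical pole, had a probe set whose arms did not overlap over the 4 times. It was 1 of the 23, a share like that of all probe sets (4.22%), so this does not set ITPR3 apart. The brighter ITPR3 probe set (11742963_at), which is the one without overlap, read 3.65, 3.63, 3.46 and 3.47 in BSA and 3.70, 3.68, 3.85 and 3.77 in TNF-α. The highest BSA value thus lay just under the lowest of TNF-α. The differences were 0.05, 0.06, 0.38 and 0.30, and the fit gave 0.16 ± 0.09 from 2 to 12 h (limma adjusted p = 0.544) and 0.20 ± 0.09 over the 4 times (0.690). The second probe set read 3.11 to 3.54 around the lower quartile and differed by 0.08 and 0.01 in these fits.

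**Figure D4:**
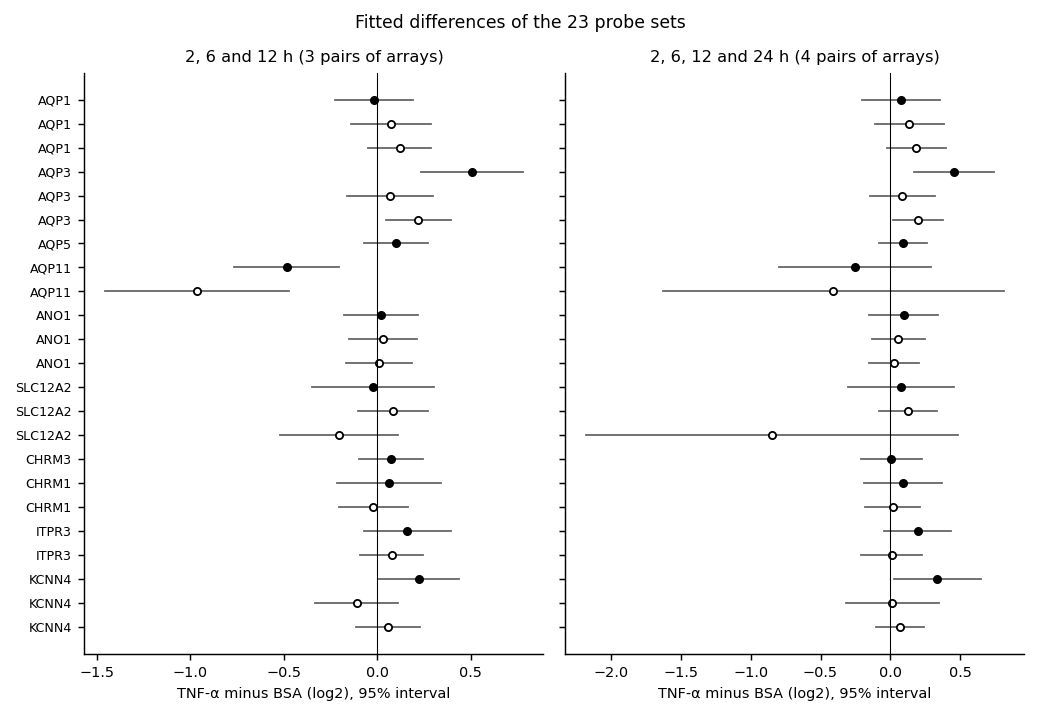
Fitted TNF-α minus BSA difference (log2) of each of the 23 probe sets with its 95% interval, not adjusted for the number of probe sets, from 2 to 12 h on the left and over all 4 times on the right. Filled points are the brightest probe set of a gene. On the left, 5 of the 23 intervals exclude 0 before adjustment, those of both AQP11 probe sets, the brightest and dimmest of AQP3 and the brightest of KCNN4, and all 23 adjusted p are at least 0.216.

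Against the lower quartile, 15 of the 23 probe sets were at or above it on all 8 arrays (65.2%, against 67.0% of all probe sets), and so was the brightest probe set of each of the 10 genes. The brightest is picked by its level, so the share of all probe sets does not apply to this or later counts of genes. At or above the median on all 8 arrays were 4 of the 23 (17.4%, against 42.2% of all). These were the 2 brighter SLC12A2 probe sets and the brightest of AQP11 and KCNN4, while 16 of the 23 were below the median on every array. A probe set between the quartile and the median cannot be told from background by these values alone.

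The 250 bases before the transcription start of AQP5, KCNN4 and AQP3 are shown for this reason: the first 2 are the windows among the 10 genes that match the NF-κB consensus, the sequence bound by the factor that TNF-α activates, and the last is that of the gene with the largest fitted difference on the higher side. Capitals mark κB consensus matches in AQP5 and KCNN4 and the TATA sequence TATAAA in AQP3. The sequences are from RefSeq in GRCh38.p14, at chr12:49961622-49961871 (plus strand), chr19:43780974-43781223 (minus strand) and chr9:33447594-33447843 (minus strand).
AQP5: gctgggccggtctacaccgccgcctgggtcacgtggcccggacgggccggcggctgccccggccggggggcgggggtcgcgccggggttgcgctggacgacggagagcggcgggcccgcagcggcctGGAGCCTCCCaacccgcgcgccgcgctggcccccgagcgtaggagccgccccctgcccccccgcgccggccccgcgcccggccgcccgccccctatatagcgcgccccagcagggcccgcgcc
KCNN4: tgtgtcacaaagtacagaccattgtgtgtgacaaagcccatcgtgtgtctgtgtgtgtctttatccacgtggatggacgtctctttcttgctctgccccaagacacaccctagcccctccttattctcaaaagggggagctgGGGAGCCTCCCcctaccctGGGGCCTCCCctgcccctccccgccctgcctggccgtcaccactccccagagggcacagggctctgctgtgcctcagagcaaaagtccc
AQP3: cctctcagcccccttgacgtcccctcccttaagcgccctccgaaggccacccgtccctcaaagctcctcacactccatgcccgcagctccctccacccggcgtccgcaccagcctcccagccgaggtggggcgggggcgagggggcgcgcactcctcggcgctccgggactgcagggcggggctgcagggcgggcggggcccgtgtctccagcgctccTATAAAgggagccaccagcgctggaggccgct

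Of the 10 genes, 9 had a window in the RefSeq table. The κB consensus, searched on both strands, matched in 2 of these 9 and in 9.96% of all 35116 windows. In AQP5 the match GGAGCCTCCC begins 123 bases before the start, and in KCNN4 there are 3 matches, of which the first 2 overlap. AQP5 differed by 0.10 and KCNN4 by 0.22 from 2 to 12 h without passing. NFKBIA, the check of the treatment, has the match GGAAATTCCC beginning 81 bases before its start and rose by 3.23. The part of the matches in these differences was not tested. The AP-1 sequence TGANTCA was in 0 of the 9 windows and 6.57% of all, and TATAAA in 2 (AQP1 and AQP3) and 10.7% of all. A match is a description of the letters and not a bound site.

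Other genes of the same machinery were looked up from lists of 60 symbols, of which 53 were measured by 169 probe sets. Of these 0 passed in either fit, and their median differences were 0.00, 0.02, 0.04 and 0.16 at 2, 6, 12 and 24 h, close to −0.01, 0.00, 0.00 and 0.13 for all probe sets. At least 2-fold apart were 0, 2, 2 and 20 of 169 (0.0%, 1.18%, 1.18% and 11.8%). Of 8 other aquaporins measured, 7 were below the median on every array. AQP2, a water channel of the kidney collecting duct, read 4.94 to 5.26 on its brightest probe set. Its other probe sets read 4.14 to 4.77 and 3.36 to 3.52. Of 11 further ion transport genes 7 were at or above the median on all arrays, among them the sodium pump subunits ATP1B1 and ATP1B3.

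The calcium signalling list held the only probe sets at least 2-fold apart before 24 h, which are named after their values were seen. At 6 h they were 2 of ATP2B1, a calcium pump of the plasma membrane, at 1.09 and 1.24. At 12 h they were 1 of ITPR1, another IP3 receptor, at −1.09 and 1 of GNAQ, the Gq subunit that couples muscarinic receptors to phospholipase C, at −1.08. The other ATP2B1 probe sets, the brightest among them, were at 0.64 and 0.66 at 6 h. At 12 h the other ITPR1 probe sets were at −0.23 and 0.11, and the other GNAQ probe sets ran from −0.84 to 0.04. The brightest GNAQ probe set differed by −0.49 ± 0.13 (SE, 3 pairs, limma adjusted p = 0.279) from 2 to 12 h. None of the 4 at least 2-fold apart passed (limma adjusted p = 0.348 and 0.531, 0.452 and 0.298 from 2 to 12 h). The lowest adjusted p of the list, 0.216, was for a probe set of ATP2A2, the pump that refills the endoplasmic reticulum with calcium, at −0.33 ± 0.07 (SE, 3 pairs). The brightest ATP2A2 probe set was at −0.13 ± 0.08 from 2 to 12 h (limma adjusted p = 0.56). The remaining ATP2A2 probe sets ran from −0.32 to −0.05. Of the muscarinic receptors, CHRM2, CHRM4 and CHRM5 read 3.13 to 4.12, on their brightest probe sets, all below the median.

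The genes most alike in pattern were sought for the 3 members whose brightest probe sets had the widest range, by Pearson r over 7 arrays, leaving out TNF-α at 24 h, among 3144 or 3145 genes with a mean at or above the lower quartile and a range of at least 1. They share the arrays, the treatment and the time course, so r is a description. For AQP3 they were SMAD3 (r = 0.993), MAP2K3 (0.978) and B4GALT5 (0.978). For KCNN4 they were ARHGEF16 (0.977), RRP1 (0.968) and MTMR14 (0.964), and for AQP11 THRA (0.959), FAM50B (0.957) and GLI2 (0.938).

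The acinar label was set against secretory products of salivary acini. Of 26 such genes 21 were measured, 14 of them below the median on all 8 arrays and 8 below the lower quartile on all 8, including statherin (STATH, 2.81 to 3.38), histatin 1 (HTN1, 2.41 to 2.59) and the mucin MUC7 (2.80 to 3.07). The other way, 6 of the 21 were at or above the median on all 8 arrays, namely PRR4 (5.31 to 7.30), CST2, CST4, MUC5B, PRB2 and PRH1, of which the last 5 read 4.80 to 5.34. BHLHA15, the transcription factor MIST1 of serous acinar cells, read 3.41 to 3.59 around the lower quartile. The mean level of the list was 3.75 to 3.82 on the BSA arrays and 3.80 to 4.03 on the TNF-α arrays. In the list for salivary ducts, 8 of 10 genes were below the median on all arrays, while KRT18 (7.36 to 10.33) and SCNN1A (8.25 to 10.25) were high. Of 5 basal and myoepithelial markers measured, 3 were at or above the median on all 8 arrays, ACTA2 (4.54 to 5.58), MYH11 (5.16 to 5.56) and KRT5 (4.40 to 4.78), and 1 was below it on all 8, KRT14 (3.72 to 3.92). Of 5 leukocyte markers measured, CD68 (5.04 to 5.54) was at or above the median on all 8 arrays and 3 were below it on all 8, with PTPRC (3.01 to 3.27) and CD14 (2.78 to 2.88) also below the lower quartile on all 8. Of the fibroblast and endothelial markers 4 of 6 were at or above the median on all arrays, with the collagen gene COL3A1 at 8.91 to 9.93, decorin (DCN) at 6.82 to 8.80, PDGFRB and PECAM1, while CDH5 was below the lower quartile on all 8. The mean levels on the BSA and TNF-α arrays were 4.58 to 4.83 and 4.60 to 4.77 for the ducts, 4.48 to 4.64 and 4.63 to 4.89 for the basal list, 3.83 to 3.99 and 3.95 to 4.12 for the leukocytes, and 5.67 to 5.81 and 5.58 to 6.09 for fibroblasts and endothelium. No probe set of these lists passed in either fit, and their part in the results above was not tested.

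**Figure D5:**
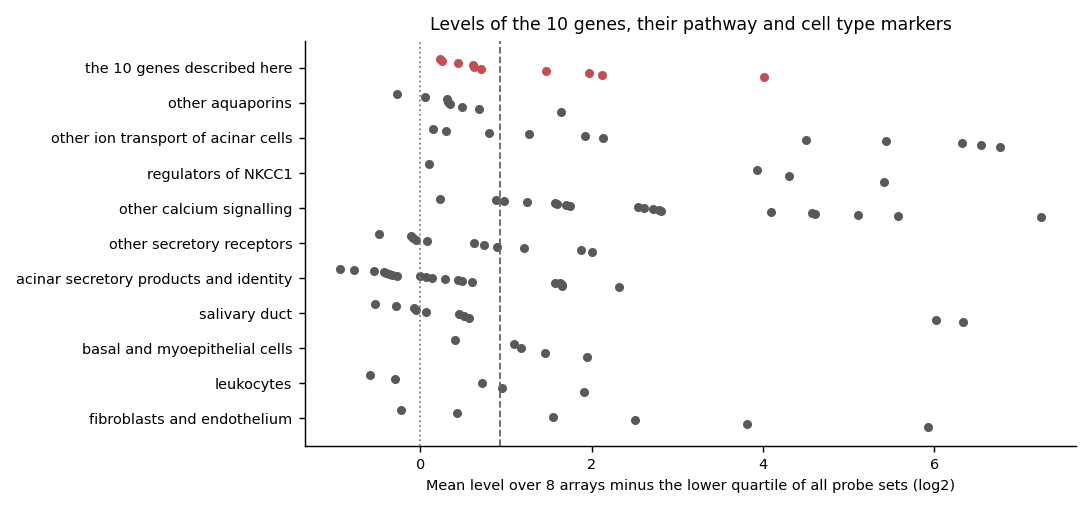
Mean level over the 8 arrays, minus the lower quartile of all probe sets (log2), for the brightest probe set of each of the 10 genes (red) and of the genes in the pathway and marker lists (grey). The dotted line is the lower quartile and the dashed line the median; 6 of the 10 genes and 14 of 21 acinar products lie left of the median on every array.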

How the data were processed

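Expression was measured on 8 Affymetrix GeneAtlas arrays, 4 per treatment and 1 per treatment and time. The deposited values are log2 levels per probe set that the authors made with RMA, per the submitters' processing notes; which RMA software was used is not stated in those notes. RMA subtracts background and equalises the arrays, so dim probe sets are compressed and their differences understated. Of 49386 probe sets, 93 array controls were left out of the tests. Probe sets were named by the platform's annotation, and 45253 had 1 symbol, 1327 several and 2713 none. No value was scaled, filtered or given a pseudocount.

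All 49293 probe sets were fitted in R 4.3.3 by the linear models of limma 3.58.1 with moderated variances (two-sided tests). The models held the treatment and a factor for time, over 4 times (3 residual degrees of freedom) or over 2, 6 and 12 h (2). A further model held the product of treatment and log2 hours (4). The p-values carry a Benjamini-Hochberg adjustment over every probe set fitted, with 0.05 as the threshold. The fits were tested on simulated data. The brightest probe set is that with the highest mean over the 8 arrays. Named are all 10 genes and, of the pathway lists, probe sets past the threshold or 2-fold apart one way at 2 or more of the first 3 times, of which there were none; the others named were chosen after their values were seen, apart from marker genes. The members, lists and tests were chosen with earlier results of these data known. Arrays give no read depth, and their number limits the precision. Tables were made with Python 3.11.15 and pandas 2.3.3.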

Additional observations from a re-analysis of the deposited data

Results flagged for a closer look

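In the 46 sets of 4 arrays (23 probe sets in each arm), 2 arrays lay far from the other 3 by Dixon's test, where chance gives about 1 in 20. AQP1 probe set 11715942_a_at read 3.20 on the BSA array at 2 h, and KCNN4 probe set 11763806_x_at read 4.20 on the BSA array at 6 h. The 4 arrays of an arm are also 4 times.

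AQP11 probe set 11728147_s_at changed side by more than 2-fold between times, from −1.42 at 12 h to 1.26 at 24 h. The slope of the difference with the hours did not pass (limma adjusted p = 0.815), and opposite signs at single times, with 1 array each, were not tested.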

How the results depend on the processing

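No setting tried called a member probe set over the 4 times or for the dependence on time. These settings were 1 value per gene (brightest or mean), a filter at the lower quartile, centred or requantiled arrays, trend and robust variances, array quality weights, each time left out and, for the treatment fits, no replicate block, where 0 were called without time as the pairing. From 2 to 12 h the count was also 0 under each, except that leaving out 1 time gave 0 to 2, with the 2 AQP11 probe sets called without 2 h. With 1 value per gene the count at least 2-fold apart went from 1 to 0 at 6 h and from 2 to 0 at 24 h with the brightest or the mean, and from 1 to 0 at 12 h with the brightest. With the median in place of the lower quartile 4 in place of 15 probe sets were above it on all arrays, and with the 40th percentile 8. Of 70 values of the 10 brightest differences over the 4 times, 9 turned sign. All were near 0 except SLC12A2 as the mean of its 3 probe sets (−0.21, the mean of 0.08, 0.13 and −0.85). The others were CHRM3 with centred (−0.0052) or requantiled (−0.0274) arrays and, with 1 time left out, AQP1 (−0.0176 to 0.1655), SLC12A2 (−0.021 to 0.2012) and CHRM3 (−0.0337 to 0.0731); the cause was not tested. Over all probe sets the 2 calls over the 4 times became 39 with array weights, 5 with trend and robust variances, 4 with the filter, 1 as gene means and 0 to 98 with 1 time left out. The 98 from 2 to 12 h became 217 with trend and robust variances, 36 as gene means, 8 without time as the block, and 7 to 1553 with 1 time left out (7 without 6 h, 1553 without 2 h). Signal close to background limits AQP1, AQP5, ANO1, CHRM1, CHRM3 and ITPR3.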
